A study of Mus musculus with 30 samples.

Results

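Meningeal and perivascular fibroblast genes were followed in the prefrontal cortex of mice at postnatal day 40. They comprise Dcn, Lum, Ogn, Bgn, Ccdc80, Igf2, Aldh1a2, Foxc1, Slc6a13 and Slc22a6, listed by name from outside the collagens, and all 10 were found among the 18240 genes of the deposited table. The series holds 30 bulk RNA sequencing libraries from C57BL/6J mice of 1 labelled batch. Vehicle was given to wild-type (WT) mice (4 female and 4 male libraries) and to mice heterozygous (HT) for Adnp, which encodes a nuclear zinc finger and homeodomain protein (4 female and 3 male). HT mice also received fluoxetine, a serotonin reuptake inhibitor (4 female and 4 male), or lithium, a mood stabilizer (3 female and 4 male). WT mice given either drug are not analysed here, so each drug was compared with vehicle in HT mice alone. For the Adnp allele, the doses and the length of treatment, details were not given in the labels. The labels number the replicates without saying that each was a separate mouse, so p-values reflect only how far these libraries differ, which may in part be technical.

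Fibroblasts of the brain lie in the meninges, the membranes that cover the cortex, and around the larger vessels that enter it from the surface. They lay down extracellular matrix, supply growth factors and retinoic acid, and form part of the barrier between blood, cerebrospinal fluid and brain. In a cortex homogenate their transcripts come from a small part of the cells. In such bulk samples a change in the number of these cells cannot be told apart from a change in RNA per cell.

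The members fall into 4 roles. Dcn (decorin, chromosome 10: 97479609-97518143), Lum (lumican, 10: 97565128-97572703), Ogn (osteoglycin, 13: 49608046-49624501) and Bgn (biglycan, X: 73483602-73495933) encode small leucine-rich proteoglycans, which bind collagen fibrils. Ccdc80 (16: 45093402-45128077) encodes another secreted matrix protein. Igf2 (7: 142650766-142666816), an imprinted growth factor gene, and Aldh1a2 (9: 71215789-71296243), the gene of a retinaldehyde dehydrogenase that makes retinoic acid, supply signals. Foxc1 (13: 31806633-31812476) encodes a forkhead transcription factor needed for meningeal development. Slc6a13 (6: 121300227-121337733) encodes the GABA transporter GAT2, and Slc22a6 (19: 8618039-8628299) the organic anion transporter OAT1. These are whole-gene spans in GRCm38 from GENCODE M21, with Igf2 on the minus strand and the other 9 on the plus strand.

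Slc6a13, Aldh1a2 and Slc22a6 varied together more closely than any other members, and the DNA just upstream of a start of each is shown for that reason. The sequences are from RefSeq on GRCm38.p6, all on the plus strand. They cover chr6:121300038-121300226, chr9:71215539-71215788 and chr19:8617746-8617995, cut where an annotated exon begins. Capitals mark matches, on either strand, to a CCAAT box (CCAAT), a GC box (GGGCGG) or a TEAD site (GGAATG).
Slc6a13: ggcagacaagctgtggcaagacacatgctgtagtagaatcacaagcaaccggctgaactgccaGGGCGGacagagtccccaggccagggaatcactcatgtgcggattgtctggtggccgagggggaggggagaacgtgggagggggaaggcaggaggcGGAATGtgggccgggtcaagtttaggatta
Aldh1a2: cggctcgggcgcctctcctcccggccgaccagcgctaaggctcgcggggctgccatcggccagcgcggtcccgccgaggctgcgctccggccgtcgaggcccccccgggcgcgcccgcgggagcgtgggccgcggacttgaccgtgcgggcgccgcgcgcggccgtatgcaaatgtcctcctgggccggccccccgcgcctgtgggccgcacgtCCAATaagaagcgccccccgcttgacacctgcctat
Slc22a6: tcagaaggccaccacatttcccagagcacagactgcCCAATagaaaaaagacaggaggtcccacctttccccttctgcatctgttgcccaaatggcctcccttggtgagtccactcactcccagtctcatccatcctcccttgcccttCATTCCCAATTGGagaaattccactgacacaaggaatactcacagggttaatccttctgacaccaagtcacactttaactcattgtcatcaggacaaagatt
Slc6a13 held a GC box and a TEAD site, Aldh1a2 a CCAAT box only, and Slc22a6 3 CCAAT boxes and a TEAD site, of which a CCAAT box shares a base or more with the TEAD site and with the CCAAT box on the opposite strand. The 250 bases upstream of Aldh1a2 had 77.6% G and C and 40 CpG pairs, against 48.4% and 0 CpG pairs for Slc22a6, so the 3 windows were unlike in composition. Over all promoters in the table the medians were 52.4% and 6 CpG pairs.

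Promoter windows were matched for 7 members, with 12 starts, and none was matched for Dcn, Lum or Ccdc80. The TEAD letters were in at least 1 window of Igf2, Ogn, Slc22a6 and Slc6a13, 4 of the 7 genes and 6 of the 12 windows, and in 12.6% of all 32851 windows of that length. The CCAAT letters were in windows of 5 of the genes (33.8% of all windows) and the GC box in 4 (32.7%). Ogn had a TATA box (TATAAA, 12.4% of all windows), in both orientations and overlapping. The forkhead core (GTAAACA, 3.17% of all windows) and the AP-1 site (TGANTCA, 6.75%) were in none of the 12. Genes with several starts had more windows to match, and a match is a description of letters, not a site of binding.

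Depth was 23771758 to 34307061 reads per library. Adnp itself was not lower in the libraries labelled HT. It read 1703 to 2228 normalized counts in the 8 WT and 1886 to 2491 in the 22 HT libraries, and was higher in HT vehicle than in WT vehicle by 0.26 on the log2 scale (SE 0.05, limma adjusted p = 0.00996). Reads from an altered allele may be counted too, so this does not check the labels, and HT and WT below mean the libraries so labelled. Summed excitatory cortical neuron markers were 122100 to 187300 normalized counts, while summed striatal markers ranged from 6801 to 50230 and olfactory bulb and neuroblast markers from 11870 to 49540.

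A single library stood apart in the fibroblast genes and is given separately. HT lithium male 4 was the highest of the 30 libraries in 9 of the 10 members, all but Ccdc80. Against the median of the other 29 libraries it was 3.48 times as high for Dcn, 2.95 for Bgn, 2.69 for Lum, 2.64 for Slc22a6, 2.53 for Aldh1a2, 2.37 for Igf2, 2.35 for Ogn, 2.27 for Slc6a13 and 1.74 for Foxc1. For Ccdc80 the ratio was 1.06, the ninth highest value. The excess was thus shared by proteoglycans, transporters, growth factor and enzyme, smaller for the transcription factor, and not seen for Ccdc80.

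The same library was also highest in the summed markers of several other cell types. Its 9 border macrophage markers summed to 945 normalized counts (295.5 to 698.5 in the other libraries), its 11 mural cell markers to 10810 (6883 to 9496), its 12 endothelial markers to 13860 (10860 to 13750) and its 9 choroid plexus markers to 813 (129.9 to 701.7). Its olfactory bulb and neuroblast markers summed to 49540 (11870 to 47460), and its excitatory cortical neuron markers to 122100, the lowest of all (134800 to 187300 elsewhere). No listed marker among the deposited genes was at 0 in every library. Only 9 of 12 listed choroid plexus markers were among those genes, and 3 of the 9 averaged under 10. The part of these cell types in the high fibroblast values of this library was not tested.

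**Figure D1:**
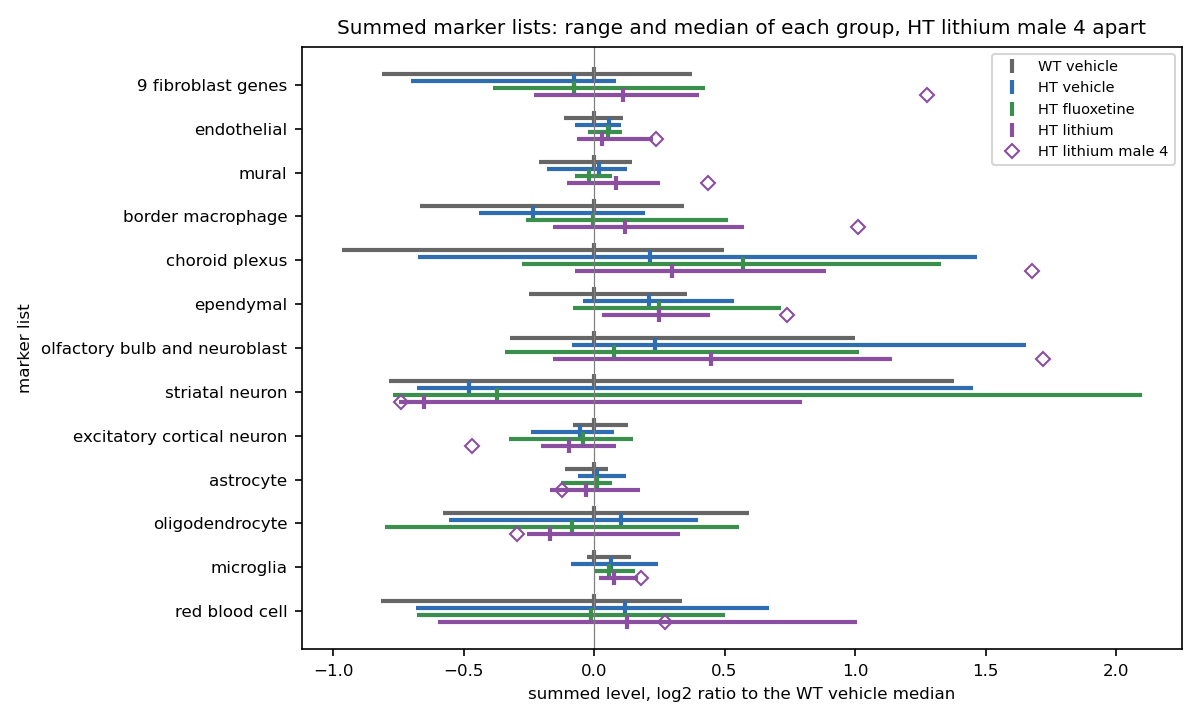
Summed normalized counts of marker lists, as the log2 ratio to the WT vehicle median, with the range (bar) and median (tick) of each group and HT lithium male 4 as a diamond. The diamond lies right of every group for the 9 fibroblast genes, mural cells, border macrophages, choroid plexus and olfactory bulb, and left of every group for excitatory cortical neurons.

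Per kilobase of exon, Igf2 was by far the most abundant, at 433 ± 91.3 normalized counts per kilobase (SD, n = 29 libraries without HT lithium male 4). Aldh1a2 (127 ± 30.3) and Slc6a13 (123 ± 30) followed at levels that did not differ beyond their spread, as did Ogn (92.6 ± 26.9), Slc22a6 (86.1 ± 20.4) and Bgn (84 ± 15.5). Ccdc80 (62 ± 8.32) and Dcn (56.3 ± 13) lay close together, and Lum (28.4 ± 7.67) and Foxc1 (26.1 ± 5.12) were lowest. The length used was that of all annotated exons of a gene together, from 2264 bases (Aldh1a2) to 6099 (Bgn). Transcripts made in the cortex may be shorter, so this order depends on the annotation and need not be that of transcript numbers. The Igf2 value carries a limit, since 62.8% of its exonic bases are shared with Gm49394 on the same strand, which is not used here, and 1.7% with the antisense gene Igf2os (mean 12.6). How the counting divided such reads is not stated in the labels.

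The proteoglycan genes ranged widely within each group. Dcn read 190.5, 296.4 and 431.1 normalized counts (lowest, median, highest) in WT vehicle, 218.7, 313.3 and 378.1 in HT vehicle, 245.9, 339.5 and 412 in HT fluoxetine, and 301.8, 350.5 and 525.7 in the 6 HT lithium libraries besides male 4, which read 1091. Bgn read 293.7, 465 and 581.1 in WT vehicle, 357.3, 502.2 and 669.5 in HT vehicle, 461, 544.3 and 704.6 in HT fluoxetine, and 431.3, 569.8 and 616.7 in HT lithium, with male 4 at 1481. All 4 groups overlapped for both genes, and the top of the lithium range was set by male libraries.

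Ogn read 124.6, 215.4 and 370.7 in WT vehicle, 121.1, 213.4 and 254.3 in HT vehicle, 166.8, 250.8 and 346.5 in HT fluoxetine, and 177.2, 255.2 and 366.6 in HT lithium, with male 4 at 571.2. Lum, the least abundant proteoglycan, read 35.6, 58.7 and 95.1 in WT vehicle, 42.3, 72.1 and 96.1 in HT vehicle, 42.3, 72.4 and 108.9 in HT fluoxetine, and 59.2, 68.2 and 95.3 in HT lithium, with male 4 at 177.7. The groups overlapped over most of their ranges for both.

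Among the signalling genes, Igf2 read 1418, 2691 and 3332 in WT vehicle, 1454, 2464 and 2591 in HT vehicle, 1910, 2283 and 3431 in HT fluoxetine, and 2064, 2677 and 3266 in HT lithium, with male 4 at 5863. Aldh1a2 read 167.3, 291.1 and 412.2 in WT vehicle, 192.3, 254.6 and 305.1 in HT vehicle, 207.3, 281.1 and 398.9 in HT fluoxetine, and 245.7, 339.3 and 415.4 in HT lithium, with male 4 at 732. Apart from male 4, both ranged most widely in WT vehicle females, where replicate 2 gave the group's highest value and replicate 3 its lowest.

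Foxc1 varied less. It read 108.5, 142.7 and 173.6 in WT vehicle, 116.2, 135 and 154.8 in HT vehicle, 110, 165 and 209.6 in HT fluoxetine, and 147, 168.8 and 240.3 in HT lithium, with male 4 at 256.4. The lowest HT lithium value lay inside the range of each other group.

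The transporter Slc6a13 read 208.3, 351.9 and 492.4 in WT vehicle, 242.1, 319.6 and 405 in HT vehicle, 242.9, 370.1 and 529.9 in HT fluoxetine, and 280, 420.3 and 518.5 in HT lithium, with male 4 at 802.9. Slc22a6 read 221.6, 323.8 and 438.6 in WT vehicle, 212.5, 304.4 and 408.5 in HT vehicle, 264.4, 346.9 and 494.2 in HT fluoxetine, and 311.9, 397 and 530.2 in HT lithium, with male 4 at 838.9. The groups overlapped for both transporters.

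**Figure D2:**
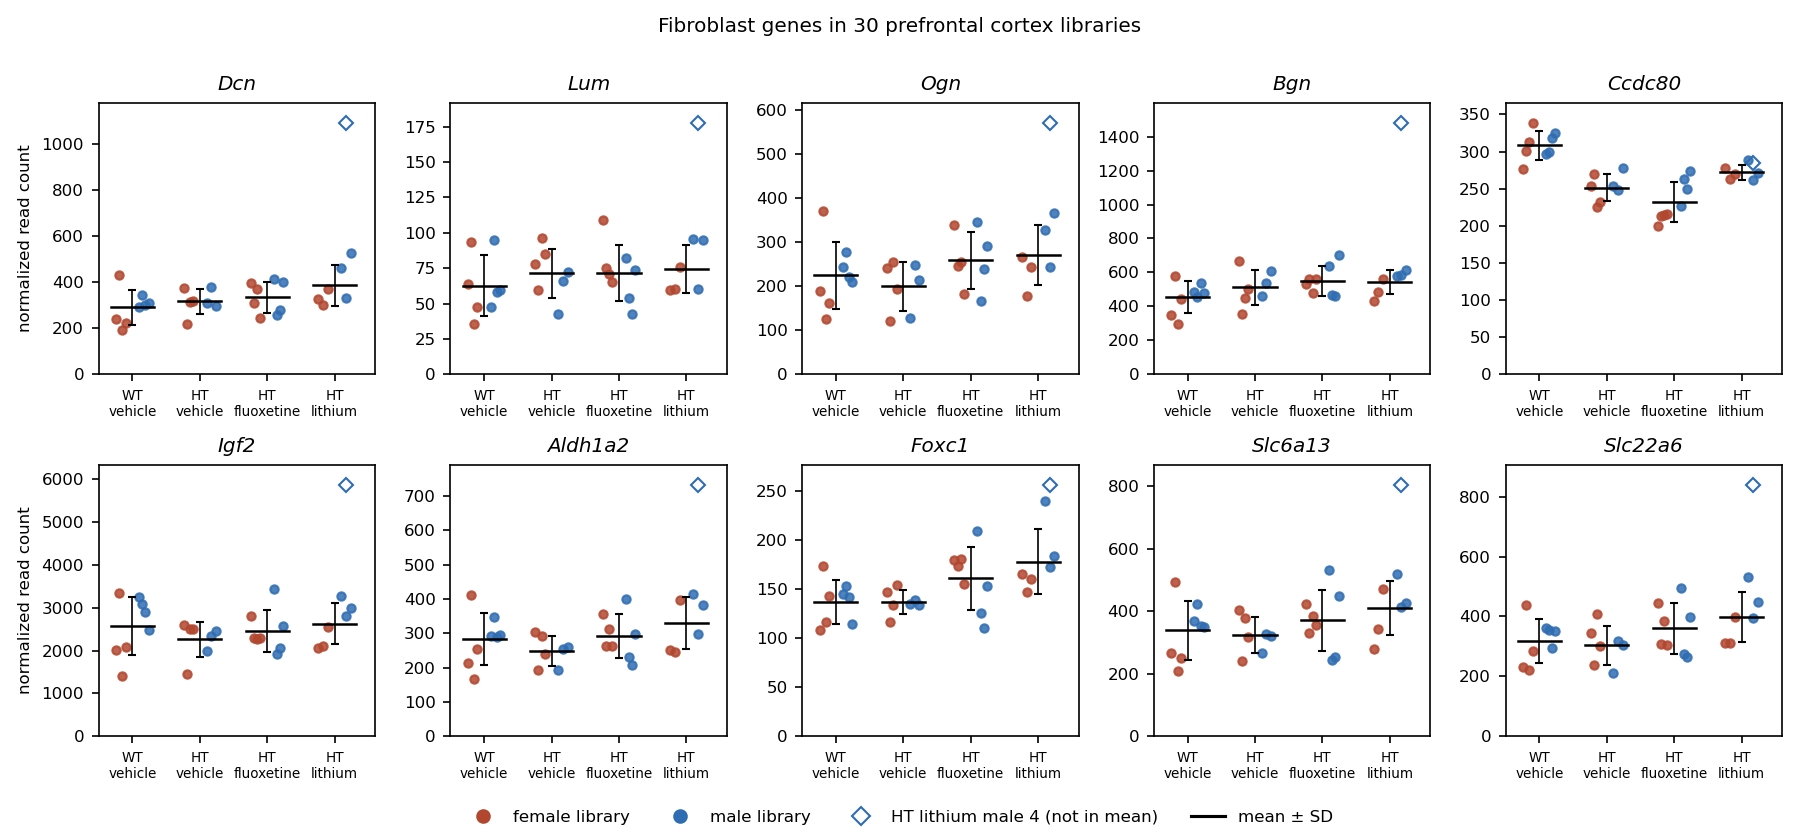
Normalized read counts of the 10 genes in all 30 libraries, by genotype and treatment, with female libraries in red and male in blue, the mean and SD of each group as lines and HT lithium male 4 as an open diamond outside the mean. The diamond tops every panel but Ccdc80, where the WT vehicle libraries (276.1 to 338.6) lie above the HT fluoxetine libraries (199.5 to 273.6).

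The first comparison was between genotypes under vehicle. Ccdc80 was lower in HT vehicle and was the 1 member of 10 called, where 123 of 16824 genes tested (0.731%) were called in either direction and 18 (0.107%) lower. A gene was called when its limma p-value, adjusted by the Benjamini-Hochberg method over all genes tested, was under 0.05. Ccdc80 read 276.1, 300.9, 313.3 and 338.6 normalized counts in WT vehicle females and 296.7, 299.8, 318.3 and 324.4 in WT vehicle males, against 253.5, 269.5, 225.3 and 232.3 in HT vehicle females and 253.6, 247.9 and 277.8 in HT vehicle males. A single HT vehicle library, male 3 at 277.8, passed the lowest WT library, female 1 at 276.1.

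The difference for Ccdc80 was a log2 fold change of -0.29 (SE 0.05, limma adjusted p = 0.00252), or 0.818 times the WT level. Leaving out each library in turn gave -0.31 to -0.27 with adjusted p of 0.00107 to 0.014. The difference was -0.32 in females (SE 0.07, limma adjusted p = 0.0415) and -0.25 in males (SE 0.08, adjusted p = 0.426), and the difference between the sexes was -0.07 (SE 0.10, adjusted p = 1). In females 0.256% of all genes were called by limma and in males 0.226%. With the vehicle groups alone in the fit, the call over both sexes was kept (adjusted p = 0.0342) and that in females was not (0.688). The call in females was also lost in 6 of the 8 fits that left out 1 library of its groups, namely HT vehicle female 1, 3 or 4 or WT vehicle female 2, 3 or 4.

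The other 9 members were not called between genotypes, with log2 fold changes of -0.18 (Aldh1a2) to 0.19 (Bgn) and standard errors of 0.12 to 0.23. Their median was -0.05, beside -0.0010 over all genes tested. Of the 9, 4 were positive (Dcn, Lum, Bgn and Foxc1), and none had an unadjusted p under 0.05, where 6.6% of all genes did. By sex, all 9 were positive in females (median 0.17) and 2 of 9, Dcn and Bgn, in males (median -0.29). With only the male vehicle groups in the fit, Aldh1a2, Slc22a6, Slc6a13 and Igf2 were lower in HT at an unadjusted limma p under 0.05. In that fit 737 of 16755 genes had such a p, and no member was called. The difference between the sexes, females minus males, was positive for all 9 (median 0.42), and the test of it called none of the 10 members by limma (lowest adjusted p = 1) and 0% of all genes. Over both sexes Foxc1 differed least, at 0.01 (SE 0.12), with HT vehicle at 137.1 ± 12.1 (SD, n = 7) and WT vehicle at 137.2 ± 22.3 (SD, n = 8).

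Fluoxetine was compared with vehicle in HT mice. None of the 10 members was called by limma, where 6 of 16824 genes (0.0357%) were. At an unadjusted p under 0.05 there was 1 member, Ccdc80, by limma, edgeR and DESeq2 alike, against 2.63% of all genes by limma. Ccdc80 read 199.5, 212.8, 214.5 and 215.5 in HT fluoxetine females and 226.2, 263.4, 249.6 and 273.6 in males. HT vehicle libraries of both sexes read 225.3 to 277.8, which the female fluoxetine values fell below and the male values did not. The share of all genes with such a split was not counted. The fluoxetine difference for Ccdc80 was -0.13 on the log2 scale (SE 0.05, limma adjusted p = 1), with -0.22 in females and -0.04 in males, a difference between the sexes of -0.18 (SE 0.10, adjusted p = 0.779).

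The other 9 members all had positive fold changes under fluoxetine, from 0.03 (Lum) to 0.39 (Ogn), with a median of 0.19 beside -0.0016 over all genes. The largest, Ogn at 0.39 (SE 0.23), and the most precise, Foxc1 at 0.21 (SE 0.12), both had a limma adjusted p of 1. HT fluoxetine male 1 was high in all 9, at a median of 1.39 times each gene's median level, while males 2 and 3 were low in all 9, at 0.812 and 0.832. Males of 1 treated group thus covered much of the range seen over the 29 libraries.

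Against WT vehicle, HT fluoxetine libraries had lower Ccdc80 by 0.42 on the log2 scale (log2 fold change -0.42, SE 0.05, limma adjusted p = 4.74e-06), or 0.749 times. All 8 HT fluoxetine libraries lay below all 8 WT libraries, as was the case for 15 of 16824 genes (0.0892%). This was the 1 member called of 10, where 251 genes (1.49%) were called in either direction and 42 (0.25%) lower. HT vehicle and HT fluoxetine were compared with the same WT libraries, so both differences share them.

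Lithium was compared with vehicle in HT mice, through the same HT vehicle libraries as fluoxetine, so both drug differences share them. None of the 10 members was called by limma, edgeR or DESeq2, where limma called 15 of 16824 genes (0.0892%), all higher. All 10 log2 fold changes were positive, with a median of 0.42 beside -0.0039 over all genes, of which 47.8% were positive. Without HT lithium male 4 the median was 0.31. The largest were for Ogn (0.57, SE 0.24), Aldh1a2 (0.54, SE 0.20), Slc22a6 (0.52, SE 0.18), Slc6a13 (0.45, SE 0.20) and Dcn (0.44, SE 0.21), followed by Foxc1 (0.41, SE 0.12), Igf2 (0.34, SE 0.18), Bgn (0.25, SE 0.19), Lum (0.24, SE 0.22) and Ccdc80 (0.12, SE 0.05).

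By limma, 7 members had an unadjusted p under 0.05, all higher (Foxc1, Slc22a6, Aldh1a2, Ogn, Slc6a13, Ccdc80 and Dcn), where 5.72% of all genes did. The edgeR test gave 7 and DESeq2 6, while limma gave 5 with only the groups compared and 6 with a replicate block. The 9 members other than Ccdc80 varied together, so in every comparison a count of members is not a count of independent results. Without HT lithium male 4 there were 3 by limma, Foxc1 (0.36), Slc22a6 (0.41) and Aldh1a2 (0.41), where 3.71% of all genes did. The lowest adjusted p was 0.586, for Foxc1, and 0.999 without that library. Leaving it out moved Bgn from 0.25 to 0.09, Lum from 0.24 to 0.10, Dcn from 0.44 to 0.27 and Igf2 from 0.34 to 0.22, and Foxc1 only from 0.41 to 0.36.

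**Figure D3:**
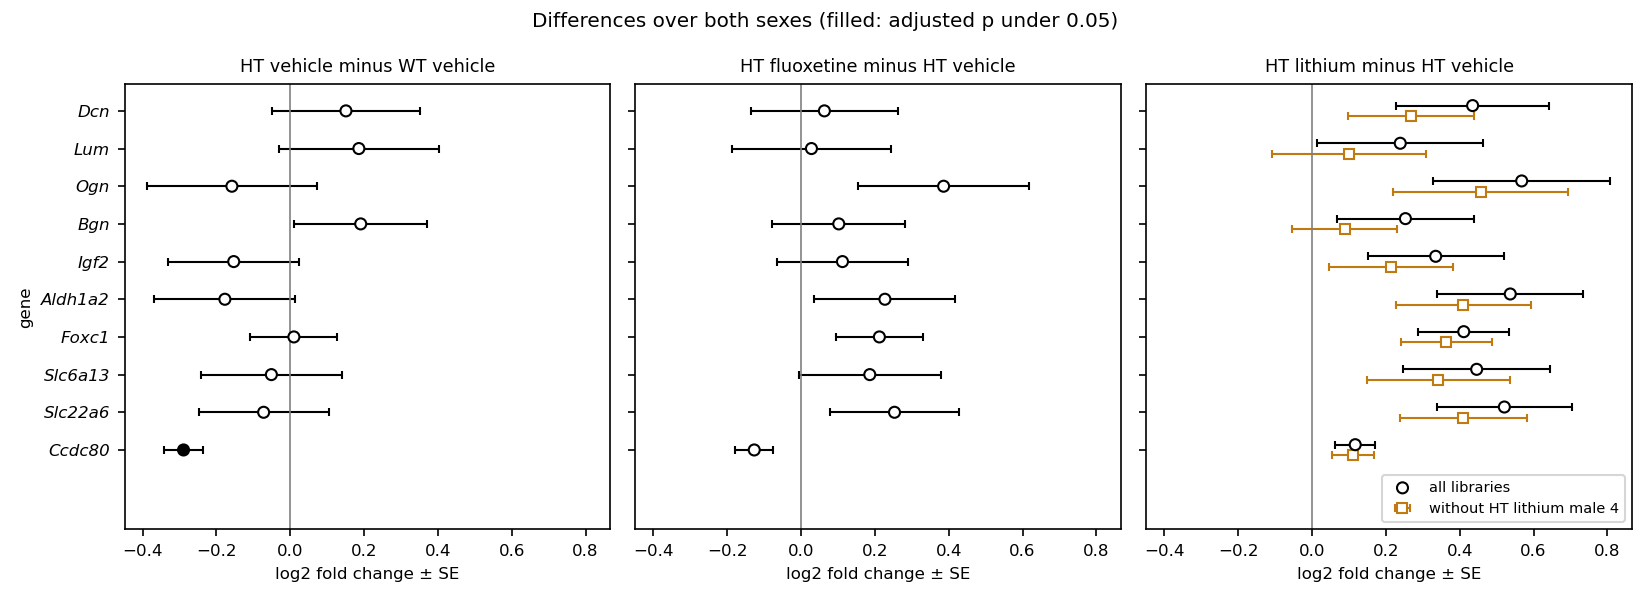
Log2 fold change with its standard error for each gene in 3 comparisons over both sexes, with orange squares for lithium without HT lithium male 4. Ccdc80 between genotypes (-0.29) is the filled point, and the orange squares lie left of the circles for every gene under lithium, least for Ccdc80 and Foxc1.

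The positive values under lithium came mostly from male libraries. In males the median over the 9 members other than Ccdc80 was 0.75, and 0.53 without male 4, and in females it was 0.12. In females, 8 of the 9 were positive, at 0.01 (Igf2) to 0.21 (Ogn), and Lum was at -0.27. No member was called in either sex by limma, where 0% of genes were called in females and 0.0773% in males. DESeq2 called 1 member in males, Slc22a6 (0.99, adjusted p = 0.0392), where it called 0.261% of genes, and edgeR called none. The test of the difference between the sexes called none by limma (lowest adjusted p = 0.481, for Slc22a6, with 0% of all genes called). At an unadjusted p under 0.05 it had 2 members, Slc22a6 and Lum, and none without male 4.

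Single libraries show the same split. Slc22a6 read 530.2, 395.8 and 447.1 in HT lithium males 1 to 3 and 838.9 in male 4, above 212.5, 317.8 and 304.4 in HT vehicle males. In females it read 312.9, 311.9 and 398.2 under lithium and 345.7, 238.2, 408.5 and 302.2 under vehicle. Male groups did not overlap and female groups did.

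Foxc1 read 240.3, 172.3 and 183.8 in HT lithium males 1 to 3 and 256.4 in male 4, above 135, 138.8 and 133.7 in HT vehicle males. In females it read 165.4, 147 and 160.7 under lithium and 147.1, 116.2, 134.1 and 154.8 under vehicle. The same order without overlap in males held for Slc6a13 (413.3 and above against 327.4 and below), Igf2 (2802 against 2464) and Aldh1a2 (296.9 against 259.8). These are 5 of the 10 members, where 5.46% of all genes had every HT lithium male above every HT vehicle male, and the same 5 stood without male 4, where 7.17% did. In females there were 0 (1.77% of all genes). The 5 genes varied together from library to library, so they are not 5 independent results.

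The HT vehicle males are 3 libraries, and 1 of them was low. HT vehicle male 1 had a median ratio of 0.755 over the 9 members, beside 1 and 0.95 in males 2 and 3. WT vehicle males 1 to 4 stood at 1, 1.14, 0.964 and 0.982. HT lithium males 1 to 3 stood at 1.44, 1.13 and 1.32, and male 4 at 2.53. Females under lithium stood at 0.896, 0.961 and 1.15, and HT vehicle females at 1.09, 0.698, 1.02 and 1. WT vehicle libraries spanned 0.585 (female 3) to 1.38 (female 2), so that WT vehicle females alone covered nearly the spread of the 29 libraries.

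**Figure D4:**
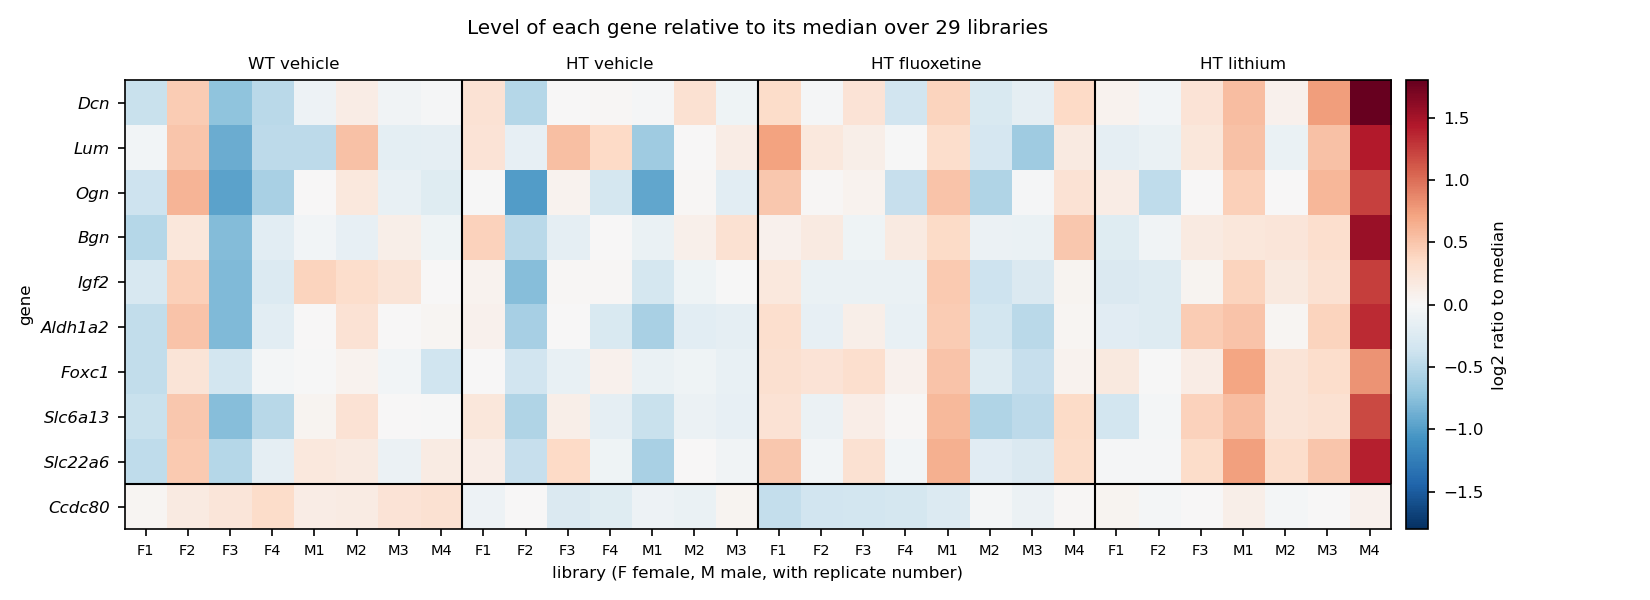
Log2 ratio of each gene to its median over the 29 libraries other than HT lithium male 4, for every library in columns grouped by genotype and treatment. In most columns the upper 9 genes share a colour, from WT vehicle F3 (median ratio 0.585) to HT lithium M4 (2.53), while Ccdc80 changes with the blocks of groups.

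Against WT vehicle, HT lithium libraries gave positive log2 fold changes for 9 members (0.18 for Igf2 to 0.59 for Dcn) and -0.17 for Ccdc80. None of the 10 was called by limma or edgeR, where limma called 332 of 16824 genes (1.97%). At an unadjusted p under 0.05 there were 6 members by limma (17.7% of all genes), 5 of them higher and Ccdc80 lower, 5 by edgeR and 7 by DESeq2. Without HT lithium male 4 there were 3 by limma, Dcn and Foxc1 higher and Ccdc80 lower, where 11.9% of all genes were, and Igf2 moved from 0.18 to 0.06. Foxc1 (0.42, SE 0.12, limma adjusted p = 0.0617) and Dcn (0.59, SE 0.20, adjusted p = 0.135) were called by DESeq2 (0.42, adjusted p = 0.0333, and 0.63, adjusted p = 0.0485), where 2.89% of genes were. Without HT lithium male 4, limma gave 0.37 for Foxc1 (adjusted p = 0.156) and 0.42 for Dcn (0.296), with 1.37% of genes called. Both genes were called by limma without HT lithium male 2 (Foxc1 0.47, adjusted p = 0.032, and Dcn 0.71, adjusted p = 0.0439). They were also called without WT vehicle female 2 (Foxc1 0.48, adjusted p = 0.0204, and Dcn 0.71, adjusted p = 0.0409), so single libraries decided these calls. Each of these fits also called more of all genes than the 332 called with every library, so the gain was not particular to these members.

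Ccdc80 in HT lithium lay between WT and HT vehicle. It read 278.1, 262.5 and 270.1 in females and 288.9, 261.9, 270.9 and 284.5 in males, with a mean of 273.9 ± 10.4 (SD, n = 7) beside 308.5 ± 19.3 (n = 8) in WT vehicle and 251.4 ± 18.7 (n = 7) in HT vehicle. Its log2 difference from WT vehicle was -0.17 (SE 0.05, limma adjusted p = 0.0842), and from HT vehicle 0.12 (SE 0.05, adjusted p = 0.873). Neither was called. Between the drugs, HT lithium was higher than HT fluoxetine by 0.24 (SE 0.05, limma adjusted p = 0.142), with the groups at 261.9 to 288.9 and 199.5 to 273.6. That was the eighth lowest p of 16824 genes, of which 0% were called by limma, and the 9 other members had differences of 0.15 to 0.37 with no unadjusted p under 0.05, where 6.86% of all genes had one. Without HT lithium male 4 the median of the 9 went from 0.22 to 0.15, and they ranged from -0.01 (Bgn) to 0.21 (Dcn), with 8 of 9 positive.

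No member was called between the sexes by limma, where 0.214% of genes were, over the 4 combinations of genotype and treatment. Lower in females at an unadjusted p under 0.05 were Igf2 (-0.30, SE 0.13), Bgn (-0.27, SE 0.13) and Ccdc80 (-0.10, SE 0.04), with adjusted p of 0.514, 0.588 and 0.421 in limma. This is 3 of 10 members, where 8.05% of all genes had an unadjusted p under 0.05. DESeq2 gave 4 and edgeR 3. Without HT lithium male 4, Igf2 and Ccdc80 remained at an unadjusted p under 0.05, where 7.81% of all genes were.

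The 9 members other than Ccdc80 rose and fell together from library to library. Over the 29 libraries without HT lithium male 4, Spearman's rho in their 36 pairs was 0.48 (Lum with Bgn) to 0.96 (Slc6a13 with Aldh1a2), with a median of 0.73. With group means removed the range was 0.5 to 0.93 and the median 0.77. Slc22a6 had a rho of 0.92 with both Slc6a13 and Aldh1a2, the upstream sequences of which are printed above. These values describe points that share a library and its depth, and no p is given for them.

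Ccdc80 did not follow the other members. Its rho with each of the 9 was -0.33 (Lum) to 0.08 (Igf2), with a median of -0.13, and -0.25 with group means removed. Its residual SD on the log2 scale was 0.09, lower than the median of all genes tested (0.134), while those of the other 9 were 0.24 (Foxc1) to 0.46 (Ogn), above 72.5% to 92.7% of genes. In these libraries Ccdc80 therefore lacked the variation that marked the other 9, and its level did not follow theirs. It is kept here as a member by name.

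**Figure D5:**
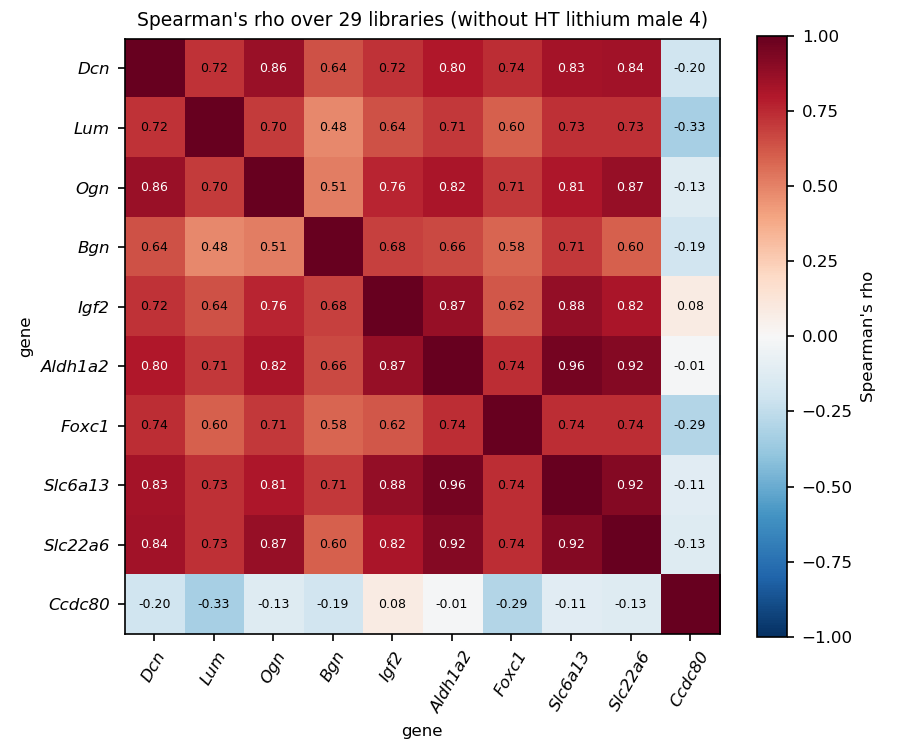
Spearman's rho between each pair of genes over the 29 libraries without HT lithium male 4, printed in each cell. The block of 9 genes holds values of 0.48 to 0.96, and the Ccdc80 row and column hold -0.33 to 0.08.

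The genes most like each member over the 29 libraries were named by the 3 highest rho values. Slc13a4, a sulfate transporter gene, was named for 4 members, with 0.95 for Slc6a13, Aldh1a2 and Slc22a6 and 0.88 for Igf2. Bmp6, a bone morphogenetic protein gene, had 0.93 with both Slc6a13 and Aldh1a2, and Ptgds, which encodes a prostaglandin D synthase abundant in meninges, had 0.93 with Slc22a6 and 0.78 with Lum. Gjb2, a connexin gene, had 0.89 with Ogn and 0.78 with Foxc1. Dcn was nearest to Serpinf1 (0.90), Igf2 to Fmod and Aebp1 (0.91 each), Bgn to the complement gene C4b (0.88) and Foxc1 to Fgfbp1 (0.79). Ccdc80 was nearest to Acot2 and Pcdha5 (0.74 each) and Syt17 (0.71), none of which was named for another member.

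A wider list of fibroblast genes, none of them a member, also leaned positive under both drugs. Of 48 tested, 42 were positive under lithium, with a median of 0.26, and 0.18 without HT lithium male 4, and none was called. Under fluoxetine 39 were positive (median 0.17) and none was called, and between genotypes 22 were positive (median -0.01). Both drug comparisons subtract the same 7 HT vehicle libraries, so their shared direction is not 2 independent results. Among those libraries, female 2 (median ratio 0.698) and male 1 (0.755) were below the median in all 9 members other than Ccdc80. Pdgfra, which also marks oligodendrocyte precursors, was called lower in HT vehicle (1435 ± 55.1 beside 1626 ± 81.6 in WT, log2 fold change -0.18, limma adjusted p = 0.0303). Of 8 oligodendrocyte precursor markers, 1 was positive between genotypes (median -0.12), and Neu4 was called lower besides Pdgfra. Against WT, HT lithium libraries had higher Lama2 (0.34, adjusted p = 0.0379), a laminin subunit gene, and Ranbp3l (0.45, adjusted p = 0.0441) and lower Pdgfra (-0.16, adjusted p = 0.0441) by limma, where 1.97% of all genes were called. None of the 48 was called without male 4, where 1.37% of all genes were. The list's summed level followed that of the 9 members with a rho of 0.88 over 29 libraries.

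The families of the members were examined in the same fit. Of 13 small leucine-rich proteoglycan genes tested, 4 are the members Dcn, Lum, Ogn and Bgn. Of the other 9, 8 were positive under lithium (median 0.10) and 7 under fluoxetine (median 0.10), and none of the 13 was called in either or between genotypes. Fmod (fibromodulin), the most abundant, read 697.1 ± 141 in HT vehicle and 1065 ± 429 in HT lithium, with male 4 at 1970, while Prelp read 411.3 ± 28.5 and 443.5 ± 92.9, with male 4 at 587. Of 15 collagens, none of them a member, 11 were positive under lithium (median 0.22, and 0.07 without male 4). Their summed level had a rho of -0.18 with that of the 9 members over the 29 libraries, and male 4 had the second highest sum (13830). Without male 4, the median collagen sum was 9220 in WT vehicle, 11850 in HT vehicle, 12120 in HT fluoxetine and 12360 in HT lithium. The rho pools these groups, and a value with group means removed was not computed. Col6a2, a collagen VI chain gene, was called higher in HT vehicle than in WT vehicle (1578 ± 119 beside 795.5 ± 84.1, log2 fold change 0.995, limma adjusted p = 1.09e-11), the only collagen of the 15 tested that was called between genotypes.

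Other genes of the pathways of Igf2 and Aldh1a2 had medians near 0. In the insulin-like growth factor system without Igf2, 8 of 13 genes tested were positive under lithium, with a median of 0.01, and none was called. Its most abundant gene, Igfbp5, which encodes a binding protein, read 4234 ± 527 in HT vehicle and 4595 ± 1000 in HT lithium, and the receptor gene Igf1r read 2130 ± 209 and 2055 ± 134. Of 16 genes of retinoic acid synthesis and response besides Aldh1a2, 7 were positive under lithium (median -0.04), and none was called. The retinoid receptor gene Rxrb read 1787 ± 63.3 and 1721 ± 86.1, and Aldh1a1, another retinaldehyde dehydrogenase gene, 873.4 ± 88.9 and 929.9 ± 110. The differences between these genes and the members were not tested.

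The transporter families were mixed. Of 5 GABA, betaine and taurine transporters besides Slc6a13, 3 were positive under lithium and none was called. Slc6a11, the GABA transporter GAT3, read 4915 ± 1880 in HT vehicle and 5727 ± 1860 in HT lithium, with male 4 at 9492. Of 12 organic ion transporters besides Slc22a6, 7 were positive (median 0.03) and none was called. Slc22a8, the organic anion transporter OAT3, read 724.2 ± 46.7 and 890.8 ± 194, with male 4 at 1166. Of 10 genes for ligands and receptors of the TGF-beta pathway, 9 were positive (median 0.11) and none was called.

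Markers of the cells next to fibroblasts moved with the members to different degrees. The summed border macrophage markers had a rho of 0.81 with the summed 9 members over 29 libraries, mural markers 0.73, endothelial 0.71, choroid plexus 0.46, ependymal 0.25 and red blood cell 0.05. Under lithium all 9 border macrophage markers were positive (median 0.31, and 0.26 without male 4) and none was called, whereas the 12 endothelial markers had a median of 0.06 and the 11 mural markers 0.11. Mrc1, the mannose receptor gene of these macrophages, read 439.7 in male 4 and 126.4 to 303.5 elsewhere. Markers of cells away from the meninges moved as well. Olfactory bulb and neuroblast markers had a rho of 0.51 and a median of 0.59 under lithium (0.45 without male 4), with 15 of 16 positive and none called. Striatal markers had a rho of -0.63 and a median of -0.63, with 0 of 12 positive and none called, and oligodendrocyte markers a rho of -0.52 and a median of -0.19, with 0 of 7 positive and none called. Against WT, HT lithium libraries had higher endothelial Cldn5 (0.32, limma adjusted p = 0.0473) and Kdr (0.33, 0.0344) and mural Rgs5 (0.23, 0.0414), where 1.97% of all genes were called. None of these 3 was called without male 4, where 1.37% of all genes were. The part of these cell types in the members' values was not tested.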

How the data were processed

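Prefrontal cortex RNA of 30 samples was sequenced from stranded poly(A) libraries, per the labels' protocols. The deposited signal of each gene is its count divided by the library's size factor, as the values themselves show. The tools were Salmon 0.11.2, DESeq2 1.19.11 and R 3.6.0, with genome build GRCm38, per the submitters' processing notes. No source used here gives the filters or how strand was handled. Every deposited value was a whole multiple of 1 step per library within 0.01, so the reads were recovered. Ensembl identifiers were paired with symbols through GENCODE M21. Groups came from the sample titles. Replicates within a group differed beyond sampling noise in all 42 pairs (chi-square of 4.83 to 32.4 per degree of freedom).

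Tests used limma 3.58.1 in R 4.3.3 (trend and robust) on log2 values of the normalized count with a pseudocount of 1. The 16824 genes averaging 10 or more were tested, with all 8 groups in 1 fit (22 residual degrees of freedom) and Benjamini-Hochberg adjustment over all genes tested. All 10 members passed the filter. Fold changes are on that log2 scale, where the pseudocount shrinks those of low genes, and comparisons over both sexes average the contrasts within each sex. Alternatives were a pseudocount of 5, no filter, TMM factors, edgeR 4.0.16 quasi-likelihood and DESeq2 1.42.0 tests on the recovered reads, only the groups compared, a replicate block, and leaving out each library. The code was tested on simulated data. Named were all members, listed genes that were called or among the 4 most abundant of a list, and the 3 genes with the highest rho for each member (predicted genes left out). The members and lists were chosen with earlier results of these data known.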

Additional observations from a re-analysis of the deposited data

Results flagged for a closer look

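Values far from the rest of their group were looked for in 100 sets of 4 to 8 libraries (each member in each group of 4 or more, by sex and over both sexes), and 13 were found. Chance gives about 1 in 20 independent sets, which is no measure for this count, since the sets overlap and 9 of the members vary together. Of these, 8 were HT lithium male 4, which was far above the rest of HT lithium for Dcn (1091 normalized counts), Lum (178), Igf2 (5863), Aldh1a2 (732), Slc22a6 (839) and Bgn (1481), and above the other HT lithium males for Igf2 and Bgn. This library was already set apart for its high values, so these 8 add nothing to that.

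The other 5 were each flagged for a gene in a library, but were not all particular to that gene. Of the 9 members other than Ccdc80, HT fluoxetine female 1 was above the median in 9 (median ratio 1.23) and HT vehicle female 2 in 0 (0.698). WT vehicle male 2 was above it in 8 (1.14) and WT vehicle male 3 in 2 (0.964). HT fluoxetine female 1 was high for Igf2 (2810) and low for Ccdc80 (200) among the HT fluoxetine females. HT vehicle female 2 was low for Igf2 (1454) among the HT vehicle females. WT vehicle male 2 was high for Aldh1a2 (349) and WT vehicle male 3 was low for Slc22a6 (295) among the WT vehicle males.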

How the results depend on the processing

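The number of members called was the same in 280 of 291 alternatives, over both sexes, within each sex, between the sexes and for the differences between them. It moved in 3 comparisons. In HT lithium against WT vehicle it went from 0 to 2 by DESeq2 and to 0 to 2 over the libraries left out in turn (2 without HT lithium male 2 or WT vehicle female 2, both times Dcn and Foxc1). Between genotypes in females it went from 1 to 0 with only the groups compared and to 0 to 1 over the libraries left out, and under lithium in males from 0 to 1 by DESeq2. Log2 fold changes of members kept direction and call in 1074 of 1100 alternatives. Those that changed sign lay near 0. Between genotypes Foxc1 was -0.002 by DESeq2, and over the libraries left out in turn it was -0.039 to 0.073, Slc6a13 -0.128 to 0.078 and Slc22a6 -0.132 to 0.034. Under fluoxetine Dcn was -0.014 to 0.129 and Lum -0.087 to 0.115, and in HT fluoxetine against WT Igf2 was -0.136 to 0.069 and Aldh1a2 -0.043 to 0.173. Dcn and Foxc1 in HT lithium against WT were 0.419 to 0.71 and 0.372 to 0.484 over the libraries left out. The cause of these changes was not tested.

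With the replicate number as a block, 1 member was called between genotypes (Ccdc80, limma adjusted p = 0.00549), 0 under fluoxetine and 0 under lithium, and no member call changed. The numbers were those of the sample titles, which differ from those in the library names among HT lithium females. A block by the numbers in the library names was not run. Deviations of same-numbered libraries from their group means correlated at -0.345 to 0.15 between genotypes in females and 0.17 to 0.278 in males, at -0.108 to 0.446 under fluoxetine in females and -0.43 to 0.0371 in males, and at -0.204 to 0.0839 under lithium in both sexes. All pairs were over 0.1 between genotypes in males only, of these comparisons with vehicle, and there the block gave no member call (lowest limma adjusted p = 0.592). Lum, at 35.6 to 177.7 normalized counts, rests on the fewest reads of the members, and intervals of the fits reflect the spread between libraries.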
